A study of Mus musculus with 6 samples.

Results

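Neurog3, Neurod1, Insm1, Rfx6, Nkx2-2, Pax6, Isl1, Etv1 and Lmx1a are transcription factors of the hormone-secreting cells of the gut epithelium. They were taken by name, 9 of the 31319 genes in the count matrices, and followed through single-nucleus RNA sequencing of mouse jejunal organoids. The organoids came from C57BL/6 mice aged 8 to 12 weeks and were cultured in conditioned medium from mouse embryonic fibroblasts. In the control (QCM, 3 samples) the fibroblasts were quiescent after serum deprivation, and in the test condition (SCM, 3 samples) they were senescent. X-rays and doxorubicin were both used to induce senescence, and the labels of these samples do not say which. The study's methods describe replicates in general as mice, but the labels do not say whether these samples came from separate animals; if they did not, p-values measure only the spread between these samples. The deposited metadata place each of the 38154 nuclei in a cluster numbered 0 to 14. The counts are unique molecular identifiers (UMIs), and levels are given as CPM, the counts of a gene per 1e6 UMIs of the nuclei summed.

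Enteroendocrine cells are rare secretory cells that arise from crypt stem cells after release from Notch signalling. Neurog3 is switched on briefly in their progenitors and starts the programme, and Neurod1, its target, and Insm1, a zinc-finger repressor, follow it. Rfx6, Nkx2-2, Pax6 and Isl1 then act in the choice and upkeep of hormone identity, while Lmx1a is known from serotonin-producing enterochromaffin cells. Etv1 is an ETS-family factor.

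Depth ranged from 4071926 UMIs in 430 nuclei (SCM replicate 1) to 41035733 UMIs in 3791 nuclei (QCM replicate 1), with a median of 1578 to 8260 UMIs per nucleus. The 2 libraries numbered 1 stood apart. SCM replicate 1 shared 175 of its 430 cell barcodes with QCM replicate 1, of which 40 were in the same cluster in both, and Xist, the non-coding RNA of X inactivation, had 168079 and 26900 UMIs in those libraries against 22 to 50 in the other 4. SCM replicate 1 is therefore not shown to be independent of QCM replicate 1, and it counts as 1 of 3 SCM samples in the comparisons over all nuclei, the nuclei counts and the shares. Values without both libraries are given for the nuclei counts, the number of called genes, Insm1 and the shares that changed sign. The ribosomal protein genes took 14.1%, 4.93% and 10.3% of the UMIs in QCM and 4.16%, 2.62% and 7.25% in SCM. SCM replicate 1 had 3 nuclei in cluster 9 and 4 in cluster 10, and levels in CPM and tests within these clusters rest on the other 5 samples, which had 29 to 379 nuclei per cluster. Shares of nuclei and UMI totals pooled over samples include its few nuclei.

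Neurog3 and Neurod1 are basic helix-loop-helix factors, which bind the E-box (CANNTG, a palindrome in its fixed letters and so the same on both strands). For this reason the 250 bases before the RefSeq start of the members are shown where they overlap no annotated exon. The windows were read from RefSeq on GRCm38.p6, and 8 of the 9 members matched an entry; Insm1 did not. Of their 10 windows, 4 were free of exons: Neurog3 (chr10:62132840-62133089, plus strand), Rfx6 (chr10:51685268-51685517, plus strand), Pax6 (chr2:105668646-105668895, plus strand) and Etv1 (chr12:38779832-38780081, plus strand). The Rfx6 and Etv1 stretches lie inside the GENCODE spans of these genes (10:51677756-51730432 and 12:38779380-38870484). They precede a RefSeq start but are not upstream of the whole annotated gene. All 4 are given 5′ to 3′ with CANNTG in capitals.
Neurog3: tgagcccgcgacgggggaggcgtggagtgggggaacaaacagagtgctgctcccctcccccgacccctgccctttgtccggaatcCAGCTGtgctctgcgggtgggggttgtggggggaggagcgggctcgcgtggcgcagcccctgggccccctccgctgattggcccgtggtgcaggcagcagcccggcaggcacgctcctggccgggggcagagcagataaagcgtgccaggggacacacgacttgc
Rfx6: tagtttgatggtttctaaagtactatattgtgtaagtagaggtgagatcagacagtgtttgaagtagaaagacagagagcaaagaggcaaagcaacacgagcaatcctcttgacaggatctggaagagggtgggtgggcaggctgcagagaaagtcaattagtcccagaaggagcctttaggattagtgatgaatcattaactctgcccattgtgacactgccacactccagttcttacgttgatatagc
Pax6: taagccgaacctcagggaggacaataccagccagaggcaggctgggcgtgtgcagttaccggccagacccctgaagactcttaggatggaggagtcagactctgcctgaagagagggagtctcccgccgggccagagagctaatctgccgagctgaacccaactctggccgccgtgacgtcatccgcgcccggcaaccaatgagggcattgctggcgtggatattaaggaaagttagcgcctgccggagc
Etv1: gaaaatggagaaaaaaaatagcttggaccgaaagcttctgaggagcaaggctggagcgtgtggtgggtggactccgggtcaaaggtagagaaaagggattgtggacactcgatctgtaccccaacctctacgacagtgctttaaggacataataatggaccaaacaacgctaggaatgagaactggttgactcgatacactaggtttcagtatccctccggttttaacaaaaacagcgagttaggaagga
The Neurog3 stretch held 1 such site, and those of Rfx6, Pax6 and Etv1 held none in these letters. Over the full windows, 250 bases before to 50 after the start, 8 of the members' 10 held CANNTG, against 72.3% of 32851 windows in the genome. CAGATG, which is itself a CANNTG and was searched on both strands, was in 1 window each of Nkx2-2 (from position -220) and Etv1 (from position -194), against 17.2% of all windows. These matches describe the letters and not binding.

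Clusters 9 and 10 carried the marker genes of enteroendocrine cells. Of 16 measured hormone and amine genes, 12 in cluster 9 and 5 in cluster 10 were at 5 CPM or more and at least 2-fold above the nuclei outside both clusters, as were 12 and 6 of 12 granule genes. Of all 12842 genes at 5 CPM or more in either cluster, 5.37% passed this limit in cluster 9 and 2.83% in cluster 10. The highest in cluster 9 were Gip, the incretin of K cells (704 CPM), Gcg, which encodes glucagon-like peptides (590 CPM), Cck, cholecystokinin (476 CPM), and the granule protein gene Chgb (411 CPM). In cluster 10 they were Chgb (523 CPM), Chga (217 CPM), Tac1, the substance P precursor (148 CPM), and Tph1, the rate-limiting enzyme of serotonin synthesis in the gut (125 CPM). No goblet, enterocyte, stem cell, fetal, fibroblast or immune marker passed this limit in either cluster, whereas Rgs13, a tuft cell marker, and the neuronal genes Rbfox3 and Elavl4 passed it in cluster 9. Rbfox3 (24.1 against 4.08 CPM elsewhere) and Ang4, a Paneth cell marker, passed it in cluster 10; these 4 were named after their values were seen. Summed, the 5 fibroblast markers were at 0 to 2.12 CPM in cluster 9 and at 0 in cluster 10. Both clusters are called enteroendocrine-like on this basis. The clusters were built from the expression of all genes, these factors included, so differences between clusters are given as a description with no test.

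Neurog3, the initiating factor, was highest in cluster 9. It stood at 13.1, 30.9 and 15.9 CPM in the QCM samples and at 25.6 and 28.3 CPM in SCM replicates 2 and 3. The mean was 22.8 ± 7.86 CPM (SD, n = 5) in cluster 9 and 3.24 ± 1.89 CPM in cluster 10. In cluster 10 the level did not differ beyond its spread from that of cluster 6, second in order with 3.76 ± 1.498 CPM (n = 6). Every one of the 5 samples was higher in cluster 9 than in cluster 10. The counts were small, 81 UMIs in cluster 9 and 5 in cluster 10.

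Neurod1, which follows Neurog3 and stays on in many hormone cells, was at 96.6, 97.2 and 66.7 CPM in cluster 9 in QCM and at 100.2 and 102.5 CPM in SCM. In cluster 10 it was at 44.7, 20.1 and 24.6 CPM in QCM and at 20.4 and 27.8 CPM in SCM. The ranges of the clusters did not overlap. Cluster 10 (27.5 ± 10.1 CPM) was second in order and stood above the third cluster by more than the spread. Insm1 was at 20.9, 30.9 and 19.1 CPM in cluster 9 in QCM and at 13.99 and 29.5 CPM in SCM. Its cluster 10 level of 7.19 CPM was close to the 7.49 CPM of cluster 13, and these did not differ beyond their spread.

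Rfx6, a winged-helix factor needed for the peptide-hormone cells, was at 171, 515 and 297 CPM in cluster 9 in QCM and at 588 and 408 CPM in SCM. In cluster 10 the QCM samples were at 145, 225 and 116 CPM and the SCM samples at 106 and 93.9 CPM. QCM replicate 1 was the lowest in cluster 9 and had nearly the same level in both clusters. The mean was 396 ± 167 CPM in cluster 9 and 137 ± 52.7 CPM in cluster 10, and the next cluster in order, 11, was at 19.5 ± 27.5 CPM.

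Nkx2-2, a homeodomain factor upstream of several hormone lineages, was at 45.7, 47.1 and 54.0 CPM in cluster 9 in QCM and at 69.9 and 69.5 CPM in SCM. In cluster 10 it was at 11.2, 44.2 and 49.2 CPM in QCM and at 28.6 and 17.4 CPM in SCM. The cluster ranges overlapped, although cluster 9 was the higher one within each sample. Rfx6, Nkx2-2 and Neurod1 were the 3 factors of which cluster 10 held a level above all later clusters by more than the spread, besides Lmx1a.

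Pax6, Isl1 and Etv1 formed a group that was high in cluster 9 and near the lower limit of measurement in cluster 10. Pax6, a paired-box factor that acts on the glucagon gene, was at 33.9, 110.4 and 106.9 CPM in cluster 9 in QCM and at 90.9 and 116.6 CPM in SCM. It had 352 UMIs there and 8 in cluster 10, over all 6 samples. Isl1, a LIM-homeodomain factor, was at 33.9, 94.2 and 72.0 CPM in cluster 9 in QCM and at 111.9 and 83.7 CPM in SCM, with 3.29 CPM as the mean of cluster 10. Etv1 was at 61.4, 257.7 and 175.7 CPM in QCM and at 198.2 and 153.2 CPM in SCM in cluster 9, and at 0 to 12.1 CPM in cluster 10. For all 3, QCM replicate 1 was the lowest sample in cluster 9. The cluster 10 levels of Isl1 and Pax6 did not differ beyond their spread from the clusters next to them in order.

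Lmx1a had the opposite order. In cluster 10 it was at 171.5, 301.6 and 221.4 CPM in QCM and at 163.5 and 257.4 CPM in SCM, and in cluster 9 at 28.7, 16.2 and 7.41 CPM in QCM and at 11.7 and 23.6 CPM in SCM. The highest cluster 9 sample was below the lowest cluster 10 sample. The means were 223 ± 58.2 and 17.5 ± 8.67 CPM, and cluster 11 followed with 7.22 CPM.

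**Figure D1:**
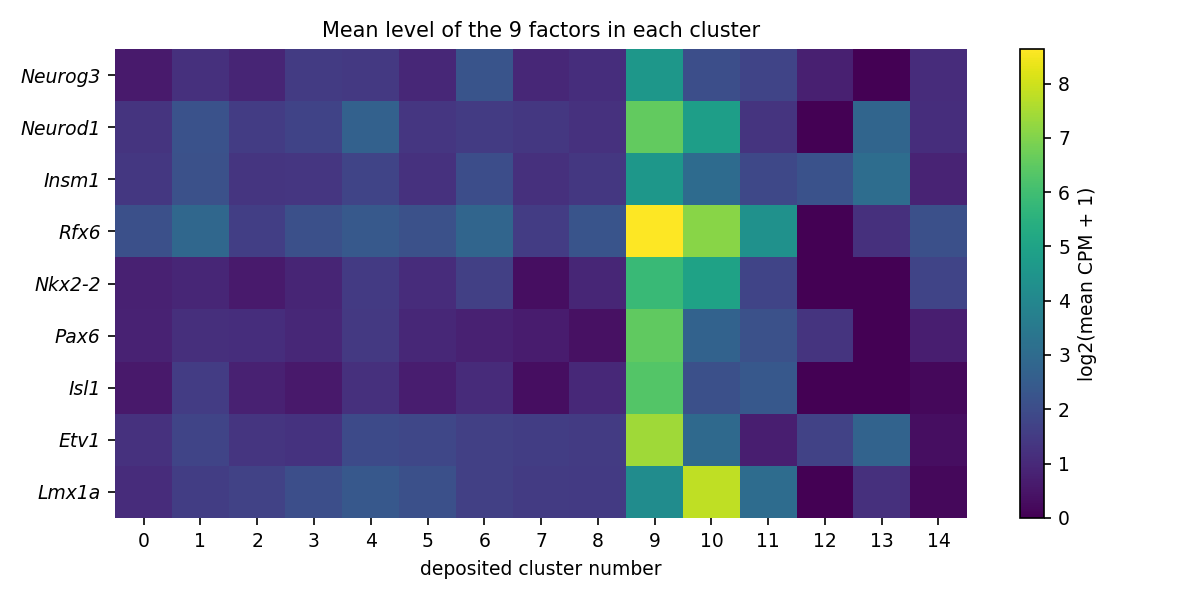
Mean level of the 9 factors in each deposited cluster, as log2(mean CPM + 1) over the samples with at least 10 nuclei in the cluster; rows are genes and columns are cluster numbers. The bright cells lie in cluster 9 for 8 factors and in cluster 10 for Lmx1a, and Rfx6 (137 CPM), Nkx2-2 (30.1 CPM) and Neurod1 (27.5 CPM) are also bright in cluster 10.

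Within samples, the log2 ratio of cluster 10 to cluster 9, on the log2(CPM + 1) scale that understates changes of low genes, was negative in 5 of 5 samples for each factor other than Lmx1a. It was -4.76 ± 1.65 (SD) for Etv1, -4.64 ± 1.39 for Isl1 and -4.44 ± 2.27 for Pax6. It was smaller for Neurog3 (-2.64 ± 1.42), Insm1 (-2.002 ± 1.34), Neurod1 (-1.76 ± 0.50), Rfx6 (-1.47 ± 0.87) and Nkx2-2 (-1.07 ± 0.92). Lmx1a was higher in cluster 10 in 5 of 5 samples, by 3.70 ± 0.82. For comparison, of 12842 genes at 5 CPM or more in either cluster, 9.31% were higher in cluster 9 in all 5 samples and 4.17% were higher in cluster 10, and the median ratio of all of them was -0.11.

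**Figure D2:**
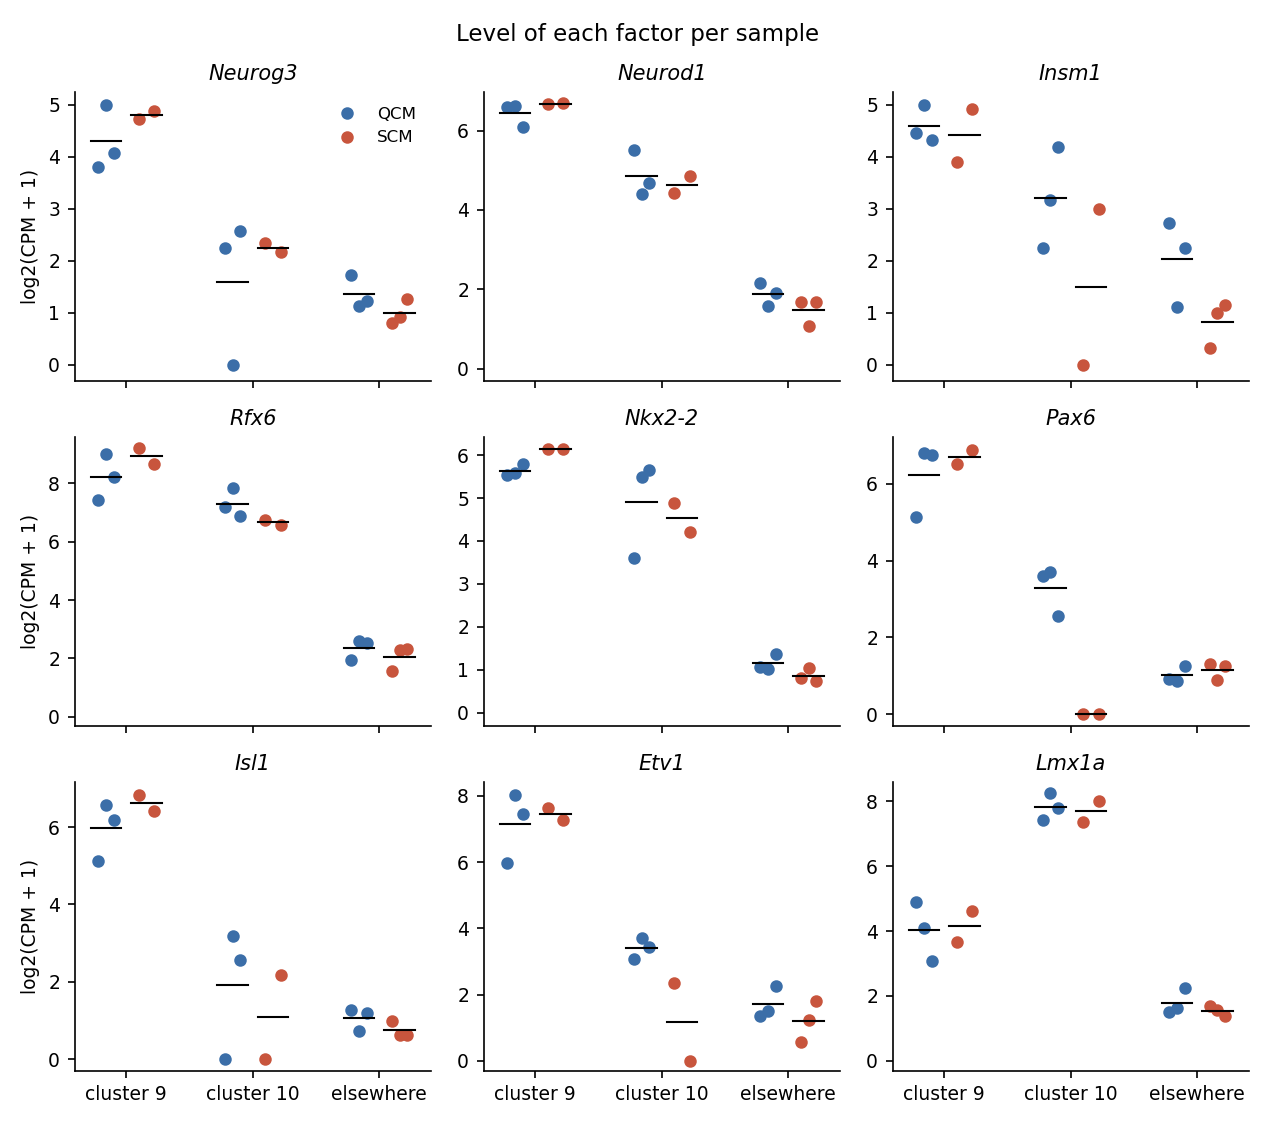
Level of each factor per sample, as log2(CPM + 1), in cluster 9, cluster 10 and all other nuclei; each point is 1 sample, blue for QCM and red for SCM, bars are means, and SCM replicate 1 appears only among the other nuclei. In Neurog3, Neurod1, Pax6, Isl1 and Etv1 the cluster 9 points lie above all cluster 10 points, in Lmx1a below them, and the media are mixed in most panels.

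The share of nuclei with a UMI gave the same picture at equal depth. With each nucleus thinned to 1000 UMIs, Rfx6 was found in 25.7% of 681 cluster 9 nuclei, 8.79% of 421 cluster 10 nuclei and 0.440% of 33873 nuclei elsewhere. Unthinned, these shares were 44.0%, 14.7% and 1.21%, with median depths per sample of 1528 to 11409, 1621 to 8429 and 1581 to 8243 UMIs in the 6 samples. Etv1 was found in 12.3% of cluster 9 and 1.19% of cluster 10, Neurod1 in 9.54% and 2.61%, and Nkx2-2 in 7.05% and 3.09%. Pax6 was found in 7.49% and 0.238%, Isl1 in 7.20% and 0.475%, Neurog3 in 3.38% and 0.238%, and Insm1 in 2.50% and 0.475%. Lmx1a was found in 0.734% of cluster 9 and 17.6% of cluster 10. In cluster 8, where 7 of 10 enterocyte markers passed the 5 CPM and 2-fold limit against all other nuclei, the shares ran from 0 of 1366 for Nkx2-2, which allows a share of up to 0.220%, to 0.805% for Rfx6. At 1000 UMIs the cluster 10 share of Neurog3 (1 of 421 nuclei) lay between its own 0.293% in cluster 8 and 0.159% elsewhere. The share of Pax6 (1 of 421) stood against 0.0732% and 0.109%, and that of Isl1 (2 of 421) against 0.146% and 0.0886%. Counts of 1 or 2 nuclei cannot place these genes above or within the background. The Insm1 share of cluster 10 was close to its 0.272% elsewhere. At 2000 UMIs Insm1 was in 2.71% (6 of 221) of cluster 10 nuclei against 0.387% elsewhere. Pax6 was in 1.36% (3 of 221) against 0.220%, and Neurog3 in 0.452% (1 of 221) against 0.279%. By CPM, 7 of the 9 factors passed the 5 CPM and 2-fold limit in cluster 10, against 2.83% of all 12842 genes. Intervals and limits cover counting error only.

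A large part of the UMIs of some factors lay outside both clusters, in many nuclei at a low level. It was 78.9% of 474 UMIs for Insm1 and 70.1% of 288 for Neurog3, against 24.3% of 2092 for Rfx6 and 27.9% of 499 for Pax6. Insm1 had 32.9% of its UMIs in cluster 1, mostly from QCM replicate 1, where 225 of 242 UMIs were outside clusters 9 and 10 and 49.6% were in cluster 1. The part of free RNA in these counts was not tested.

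Nuclei with more than 1 factor at 1000 UMIs lay almost entirely in clusters 9 and 10. In cluster 9, 54.9% of nuclei had none of the 9, 23.9% had 1, 13.2% had 2, 6.31% had 3 and 1.62% (11 nuclei) had 4 or more. In cluster 10, 72.9% had none, 20.9% had 1 and 4.75% had 2. Of the 33873 nuclei elsewhere, 647 had 1 and 1 had 2.

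Within cluster 9, Etv1 was found more often in nuclei with a Neurod1 UMI. It was found in 33.8% (22 of 65) of nuclei with a Neurod1 UMI and in 10.1% (62 of 616) of those without, higher in 5 of 5 samples, all at 1000 UMIs. Pax6 was found in 23.8% (20 of 84) of nuclei with an Etv1 UMI and in 5.19% of those without, pooled over samples that differ in depth, and its share was higher in 3 samples and lower in 1. Rfx6 was found in 49.2% of nuclei with Neurod1 and 23.2% of those without, higher in 4 of 5 samples. Neurog3 was found in 0 of 84 nuclei with Etv1 and in 23 of 597 without, and Insm1 in 0 of 65 nuclei with Neurod1 and 17 of 616 without. At these counts the zeros allow shares of up to 3.57% and 4.62%. These pairs are a selection of those counted. In others the shares were alike, such as Etv1 in 12.5% of nuclei with an Nkx2-2 UMI and 12.3% of those without. No share over all genes is given for these splits and no test was made, so the tallies only describe these pairs.

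Among cluster 9 nuclei with a Neurog3 UMI, 63 of 782, 1 of the other 8 factors was lower and 1 was higher than in the rest in all 5 samples. Of 12389 genes at 5 CPM or more in cluster 9, 5.22% were lower and 3.14% higher in all 5 samples. The nuclei with a Neurog3 UMI numbered 7, 16 and 13 in the QCM samples and 7 and 20 in SCM replicates 2 and 3. Etv1 was at 55.8 ± 67.0 CPM in them and at 190 ± 71.1 CPM in the other cluster 9 nuclei, lower in 5 of 5 samples. Insm1 was at 52.5 ± 19.9 against 18.5 ± 8.91 CPM, higher in 5 of 5 samples. Pax6 (39.0 against 100.1 CPM) and Isl1 (46.2 against 84.9 CPM) were lower in 4 of 5, whereas Rfx6 (477 against 389 CPM), Neurod1 (103 against 94.6 CPM), Nkx2-2 (68.6 against 55.2 CPM) and Lmx1a (32.4 against 15.99 CPM) were higher in 3 of 5. The values rest on few molecules, with 22 UMIs of Etv1 and 25 of Insm1 in the nuclei with Neurog3.

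The same split of cluster 9 was made for the hormone genes and for 23 measured factors of a wider list of enteroendocrine and progenitor regulators. Of 16 hormone and amine genes, 5 were lower in all 5 samples and 0 were higher. They were Gip (75.8 against 783 CPM), Gcg (207 against 656 CPM), Cck (88.6 against 535 CPM), Sct, secretin (27.8 against 68.3 CPM), and Pyy, peptide YY (2.36 against 27.3 CPM). The nuclei with Neurog3 held 25, 84, 38, 11 and 1 UMIs of these genes, so the Pyy value rests on a single molecule. Tph1 (40.0 against 5.46 CPM) and Tac1 (31.6 against 13.9 CPM) were higher in 3 of 5 samples, and so was Chga (58.2 against 76.7 CPM) despite its lower mean. Of the 23 factors, 4 were higher in all 5 samples and 0 were lower, namely Prox1 (76.4 against 53.5 CPM), Rfx3 (386 against 249 CPM), Rcor2 (51.5 against 25.1 CPM) and Neurod2 (25.3 against 10.0 CPM). Sct, Pyy and Neurod2 were named after their values were seen. Among 12389 genes at 5 CPM or more in cluster 9, 3.14% were higher and 5.22% lower in all 5 samples, with a median log2 ratio of -0.25. The median depth of the nuclei with a Neurog3 UMI was 10291, 2947.5 and 2170 UMIs in QCM and 3955 and 3773.5 in SCM, against 11518, 2865 and 1514.5, and 3846 and 2277.5, in the rest. No test was made, because the nuclei were split by a gene counted in the same cells.

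**Figure D3:**
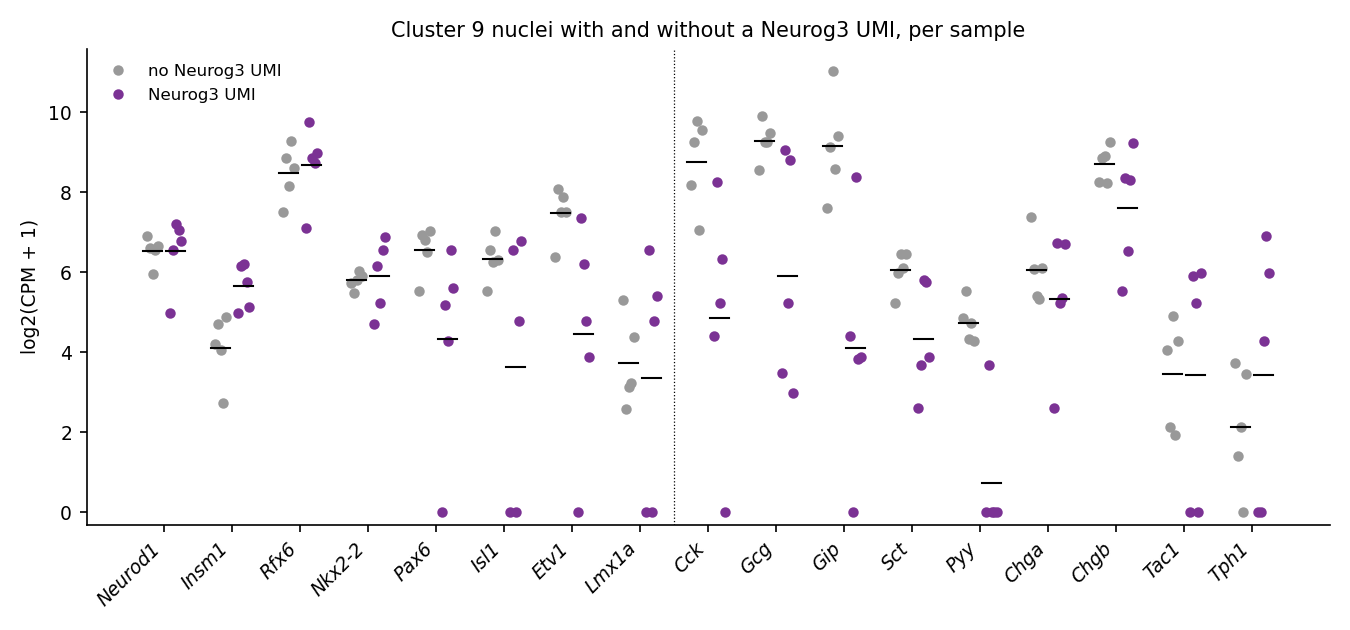
Level per sample, as log2(CPM + 1), of the other 8 factors (left of the dotted line) and of hormone and amine genes (right) in cluster 9 nuclei with a Neurog3 UMI (purple) and without one (grey); points are the 5 samples with at least 5 such nuclei and bars are means. Purple points lie below grey ones in every sample for Etv1, Cck, Gcg, Gip, Sct and Pyy and above them in every sample for Insm1.

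Across the 15 clusters, the genes with the pattern most like each factor were taken by Pearson's r of log2(CPM + 1) among 14797 genes. All points share the libraries, and clusters 9 and 10 weigh heavily in r. For Neurog3 they were Epb42 (r = 0.95), Pkib and Cacng4 (both 0.94), and for Neurod1 Pced1b and Nfasc (both 0.97). Rfx6 and Nkx2-2 had each other among their first 3 (r = 0.97) and shared Lhx1os, with Syt13 (0.96) for Rfx6 and Nkx2-2os (0.97), which overlaps Nkx2-2, for Nkx2-2. Pax6 and Isl1 shared Sphkap and Itga4 (0.96 to 0.97), followed by Isl1 for Pax6 and by Rai2 for Isl1 (both 0.96). Etv1 had Pkia (0.95), Gng4 and Cacnb2 (both 0.93), and Insm1 had Pacsin1 (0.95) and Otulinl (0.93). Lmx1a had Slc38a11 (0.97), Trpc7 and Cdk14 (both 0.96), which like it were higher in cluster 10, at 54.2, 65.1 and 124 CPM against 4.03, 5.85 and 13.3 CPM in cluster 9.

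Of the wider list of 23 measured factors, 8 in cluster 9 and 4 in cluster 10 were at 5 CPM or more and at least 2-fold above the nuclei outside, and 18 were higher in cluster 9 than in cluster 10. Among the 17 of them at 5 CPM or more in either cluster 15 were higher in cluster 9, as were 55.1% of all 12842 such genes, of which 5.37% and 2.83% passed the limit in clusters 9 and 10. Myt1, a zinc-finger factor, was at 68.3 CPM in cluster 9, 24.9 in cluster 10 and 0.792 elsewhere, and its relative St18 was at 206, 32.2 and 14.7 CPM. Runx1t1, a corepressor, was at 184, 109 and 6.02 CPM, and the homeobox factor Prox1 at 56.8, 6.50 and 2.41 CPM. Rcor2, a subunit of a chromatin repressor complex, was at 27.7, 18.8 and 11.1 CPM. The others named by level were less restricted: Rfx3 (263, 211 and 144 CPM), Sox4 (194, 173 and 156 CPM), Hes6 (65.0, 45.8 and 47.4 CPM), Tbx3 (41.8, 35.1 and 42.5 CPM), Runx1 (87.1, 52.8 and 86.6 CPM), Foxa1 (16.01, 18.1 and 18.1 CPM) and Onecut2 (145, 99.9 and 176 CPM), the last with its highest value outside both clusters.

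The comparison of the media asks whether medium from senescent fibroblasts changed the number of enteroendocrine-like nuclei or the factors in them. Cluster 9 held 43, 115 and 379 nuclei in QCM and 3, 54 and 188 in SCM, 2.11% ± 1.42 against 1.17% ± 0.53 of all nuclei (SD, n = 3). QCM replicate 3, at 3.74%, was above the other 5 samples, and the media overlapped. edgeR's quasi-likelihood test on nuclei counts gave a log2 ratio of SCM to QCM of -0.78 ± 0.58 (SE) with an adjusted p of 0.825 over the 15 clusters. Without QCM replicate 3 it was -0.07, and without SCM replicate 3 it was -1.18. Cluster 10 held 29, 73 and 205 nuclei against 4, 78 and 94, 1.24% ± 0.68 against 1.12% ± 0.38, with a log2 ratio of -0.13 ± 0.49 and an adjusted p of 0.981. Without both libraries numbered 1 the ratios were -0.88 and -0.29, and without the barcodes they share -0.71 and -0.16. Cluster 10 made up 40.3%, 38.8% and 35.1% of the nuclei of both clusters in QCM and 59.1% and 33.3% in SCM replicates 2 and 3. The SCM pair lay on either side of QCM, and the difference of 8.14 percentage points had p = 0.8 in an exact permutation test (two-sided), which cannot go below 0.2 with 3 against 2 samples.

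Summed over all nuclei, no factor passed the test between the media. edgeR called 0 of 19046 genes (percent called 0) at an adjusted p under 0.05, with 866 genes at an unadjusted p under 0.05, while DESeq2 called 21. Without both libraries numbered 1 edgeR called 0 of 19237 (314 at an unadjusted p under 0.05), and without their shared barcodes 0 of 19085 (869). In these sums fewer cells of a type and less RNA per cell cannot be told apart. All 9 factors had a lower estimate in SCM, with a median log2 ratio of -0.51, where 48.6% of all genes tested were higher, 51.4% were lower and their median was -0.01. Marker lists were summed over all nuclei as CPM per sample, with no test. The 8 goblet markers were at 820 to 2017 in QCM and 507 to 841 in SCM, the 7 Paneth markers at 536 to 2676 and 342 to 585, and the 10 enterocyte markers at 1311 to 4516 and 718 to 1849. The 16 hormone and amine genes were at 293 to 687 and 110 to 310, and the 12 granule genes at 124 to 155 and 123 to 157. The 7 stem cell markers were at 1886 to 3520 and 2529 to 3952, and the 7 fetal markers at 85.7 to 161 and 231 to 701. Over all nuclei the ranges of the media overlapped for every one of these lists but the fetal markers. In cluster 9, with 3 QCM and 2 SCM samples, the fetal, Paneth and goblet lists did not overlap. Fetal markers were at 72.1 to 158 in QCM and 214 to 226 in SCM, and Paneth markers at 469 to 1487 and 294 to 429. Goblet markers were at 901 to 1256 and 711 to 772. The hormone, granule, enterocyte and stem cell lists overlapped there. In cluster 10 the fetal (52.3 to 182 in QCM, 202 to 409 in SCM) and goblet lists (1005 to 2132, 785 to 901) did not overlap. The Paneth, hormone, granule, enterocyte and stem cell lists overlapped in cluster 10. No share over all genes is given for such sums. The part of these lists in the factors' ratios was not tested. Over all nuclei Insm1 had the largest ratio in size by edgeR, -1.72 ± 0.58 (SE, unadjusted p = 0.0186, adjusted p = 0.927). It was at 5.90, 2.06 and 4.77 CPM in QCM and at 0.737, 1.25 and 2.16 CPM in SCM, so the media overlapped by 1 sample. Its ratio was -1.04 without both libraries numbered 1 and -0.56 when the fit took the share of ribosomal protein UMIs into account. In the nuclei outside clusters 9 and 10 it was at 5.62, 1.16 and 3.77 CPM in QCM and at 0.248, 0.994 and 1.21 CPM in SCM.

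The other 8 ratios over all nuclei ran from -0.65 ± 0.47 for Neurog3 to -0.09 ± 0.39 for Neurod1 (adjusted p 0.927 to 0.987). Neurog3 was at 2.51, 2.02 and 2.11 CPM in QCM and at 0.737, 1.44 and 2.28 CPM in SCM. Neurod1 was at 5.51, 4.82 and 6.22 CPM in QCM and at 9.09, 3.37 and 5.63 CPM in SCM, where 28 of the 37 UMIs of SCM replicate 1 came from 3 nuclei of cluster 9. Lmx1a (-0.64 ± 0.38), Etv1 (-0.62 ± 0.50) and Isl1 (-0.51 ± 0.45) had ratios of like size, and Rfx6 (-0.25 ± 0.41), Nkx2-2 (-0.22 ± 0.39) and Pax6 (-0.10 ± 0.50) smaller ones. For none of the 9 were the media apart, against 4.99% of all genes tested whose SCM samples all lay higher and 2.09% whose SCM samples all lay lower. Neurod1, Rfx6, Pax6 and Nkx2-2 changed sign when the 6% deepest nuclei were left out, to 0.41, 0.11, 0.30 and 0.15, with adjusted p from 0.898.

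In cluster 9 the estimates pointed the other way. Of the 9 factors, 8 were higher and 1, Insm1, was lower in SCM, with a median log2 ratio of 0.26, where 48.9% of all 10250 genes tested were higher, 51.1% were lower and their median was -0.01. None passed the test, with edgeR at 0 called genes (309 at an unadjusted p under 0.05) and DESeq2 at 0. Nkx2-2 (0.44 ± 0.26) and Neurod1 (0.18 ± 0.24) were higher in both SCM samples than in all 3 QCM samples. That held for 10.7% of all genes, and 6.48% lay lower in both SCM samples without overlap. Rfx6 was at 0.55 ± 0.40, Isl1 at 0.47 ± 0.37 and Neurog3 at 0.42 ± 0.44, all with overlapping media. In the fits within clusters QCM replicate 1 was the only library with high Xist, so library and medium are partly confounded. It was the lowest sample in cluster 9 for Rfx6, Pax6, Isl1 and Etv1, and cluster 9 ratios without it are not given. Pax6 was at 110.4 and 106.9 CPM in QCM replicates 2 and 3 and at 90.9 and 117 CPM in SCM. Etv1 was at 257.7 and 175.7 CPM there and at 198.2 and 153.2 CPM in SCM.

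In cluster 10, 3 of the 9 factors, Rfx6, Nkx2-2 and Lmx1a, had enough counts for the test, and all 3 had lower estimates in SCM, with a median log2 ratio of -0.84, where 48.3% of all 6302 genes tested were higher, 51.7% were lower and their median was -0.02. Rfx6, at 145, 225 and 116 CPM in QCM and 106 and 93.9 CPM in SCM, did not overlap between the media, as was the case for 8.16% of all genes in this direction and 19.2% in the other. Its log2 ratio was -0.87 ± 0.32 (unadjusted p = 0.0226, adjusted p = 0.638). Nkx2-2 (-0.84 ± 0.62) and Lmx1a (-0.32 ± 0.30) overlapped. edgeR called 0 genes in cluster 10 (462 at an unadjusted p under 0.05) and DESeq2 called 0. Pax6 had 3, 3 and 2 UMIs in the QCM samples and 0 in both SCM samples, where a count of 0 allows up to 12.3 and 10.4 CPM, so a difference was not detectable at this depth.

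The difference of the medium ratios between the clusters was tested with each sample as a block. No factor passed over the 8912 genes tested (0 called, 314 at an unadjusted p under 0.05, DESeq2 0). Of the 3 factors with enough counts in cluster 10, Rfx6 had a difference of -1.40 ± 0.37 (log2 ratio of SCM to QCM in cluster 10 minus that in cluster 9, unadjusted p = 0.000989). The difference was -1.22 ± 0.57 for Nkx2-2 (unadjusted p = 0.0425) and -0.33 ± 0.52 for Lmx1a (unadjusted p = 0.537). The adjusted p of edgeR was 0.999865 for each. In the samples used, Pax6, Isl1, Etv1 and Neurog3 had 0 to 4 UMIs each in cluster 10, Insm1 had 0 to 7 and Neurod1 5 to 12, and no direction is read from their estimates.

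With both clusters summed, 6 factors had higher and 3 lower estimates in SCM, with a median of 0.14 against -0.01 for all 11082 genes tested, of which 48.5% were higher and 51.5% lower. Isl1 (0.36 ± 0.35), Neurog3 (0.34 ± 0.41) and Rfx6 (0.33 ± 0.34) were at the upper end and Insm1 (-0.28 ± 0.45) at the lower. Leaving out 1 sample moved these to between 0.06 and 0.61, 0.12 and 0.63, 0.07 and 0.69, and -1.26 and 0.20. Nkx2-2 (0.20 ± 0.26) was the 1 factor whose SCM samples both lay above QCM, as did those of 11.7% of all genes, while 6.79% lay lower without overlap. edgeR called 0 genes (444 at an unadjusted p under 0.05), as did DESeq2, and the adjusted p of the factors was 0.925 to 0.988.

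**Figure D4:**
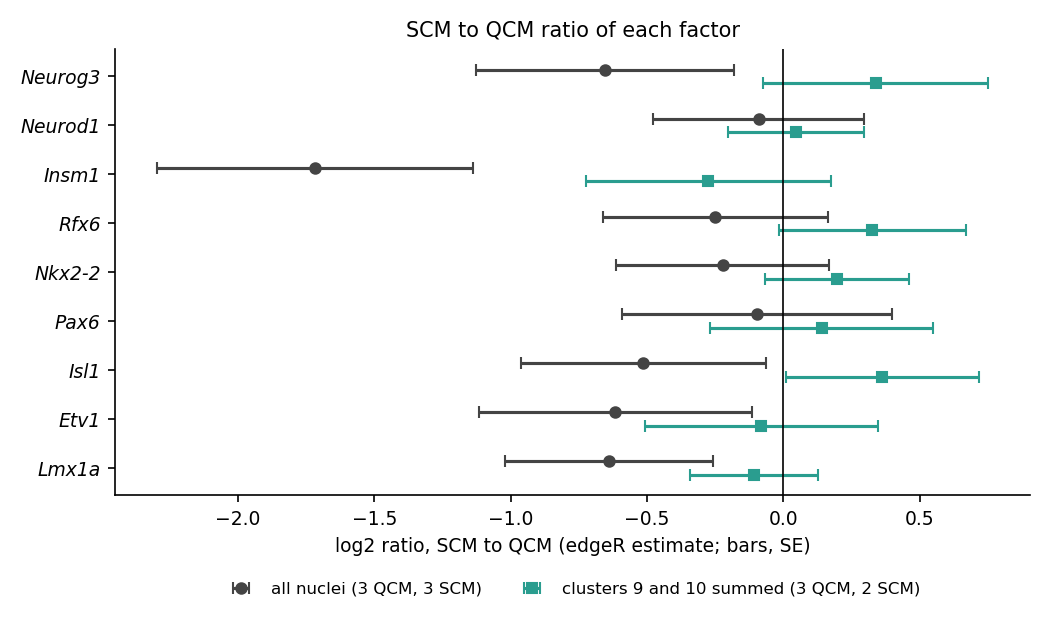
log2 ratio of SCM to QCM of each factor by edgeR, with its standard error, over all nuclei (black circles, 3 against 3 samples) and over clusters 9 and 10 summed (green squares, 3 against 2). Every black circle lies below 0, from -1.72 for Insm1 to -0.09 for Neurod1, and the green squares lie on both sides, from -0.28 to 0.36.

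With nuclei thinned to 1000 UMIs, the shares of nuclei with a UMI overlapped between the media for all 9 factors. Over all nuclei, Rfx6 was found in 0.954% ± 0.315 of QCM nuclei and 1.13% ± 0.149 of SCM nuclei, and Insm1 in 0.495% ± 0.343 and 0.110% ± 0.0969. Unthinned, Rfx6 was found in 2.64% ± 0.872 and 2.21% ± 0.254, and Insm1 in 2.42% ± 2.91 and 0.555% ± 0.124. The unthinned Insm1 mean of QCM rests on QCM replicate 1, at 5.78% against 0.567% and 0.907% in QCM replicates 2 and 3. Thinned, the Insm1 difference was -0.385 percentage points, and -0.169 without both libraries numbered 1. The exact permutation tests (two-sided, smallest possible p 0.1) gave adjusted p = 1 for all 9 thinned shares, with unadjusted p from 0.2 for Isl1. Single factors were lower in SCM without overlap at other depths, each at the smallest exact permutation p of 0.1. Unthinned this was Etv1 (1.36% ± 0.480 against 0.902% ± 0.0762, adjusted exact permutation p = 0.9), against 0.221% of all 19046 genes. Its unthinned shares were 1.90%, 0.984% and 1.19% in QCM and 0.930%, 0.816% and 0.960% in SCM. The separation was thus narrow, and QCM replicate 1, the highest, was the deepest library per nucleus. At 2000 UMIs the factors lower without overlap were Neurog3 (0.494% against 0.177%) and Insm1 (0.790% against 0.177%, both with an adjusted exact permutation p of 0.45), against 2.72% of all genes. At 1000 UMIs without the 6% deepest nuclei the factor was Isl1 (0.236% against 0.0994%, adjusted exact permutation p = 0.9), against 3.03% of all genes. Thinning to 1000 UMIs left out 0, 490 and 1876 nuclei in QCM and 106, 228 and 479 in SCM. Thinning to 2000 UMIs left out 0, 2988 and 6860 in QCM, the last being 67.6% of QCM replicate 3, and 195, 1433 and 5620 in SCM.

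Of the wider list, none was called between the media in any of these sums. Runx1, a runt-domain factor, had higher estimates in SCM in all nuclei (log2 ratio 0.84 ± 0.21, unadjusted p = 0.00475, adjusted p = 0.927), in cluster 9 (0.83 ± 0.31, unadjusted p = 0.0228) and in cluster 10 (1.39 ± 0.45, unadjusted p = 0.0121), each time higher without overlap, as were 4.99%, 10.7% and 19.2% of all genes tested. Also higher without overlap were Onecut2 over all nuclei (0.49 ± 0.33), and Myt1 (0.86 ± 0.34, unadjusted p = 0.0304) and Tbx3 (0.35 ± 0.31) in cluster 9. Runx1t1 (-1.12 ± 0.39, unadjusted p = 0.0175) and St18 (-0.69 ± 0.47) were lower without overlap in cluster 10, as were 8.16% of all genes tested there. The adjusted p of edgeR was 0.638 or more for each. These sums share nuclei and samples. Over all nuclei 5 of 19 tested had higher and 14 lower estimates, in cluster 9 it was 10 and 6 of 16, and in cluster 10 it was 2 and 6 of 8.

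The members lie on 5 chromosomes of GRCm38: Neurog3 and Rfx6 on 10, Neurod1, Pax6, Insm1 and Nkx2-2 on 2, and Lmx1a, Etv1 and Isl1 on 1, 12 and 13. Several share their position with another gene. Pax6 (2:105668900-105697364, plus strand) overlaps the antisense gene Pax6os1, counted with 491 UMIs against 499 for Pax6, and Nkx2-2 (2:147177546-147194243, minus strand) overlaps Nkx2-2os with 107 UMIs against 402. Neurog3 (10:62133090-62134763, plus strand) overlaps Fam241b on the other strand, which had more UMIs, 1295 against 288 for Neurog3. Neurod1 (2:79452521-79456751, minus strand) overlaps Cerkl on the same strand, with 234 UMIs against 725 for Neurod1. The use of strand in counting is not given in the sources used here, so reads of overlapping genes may not be told apart. The part of Fam241b reads in the Neurog3 counts, by which nuclei were split above, was not tested.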

How the data were processed

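Nuclei of organoids were sequenced with 10x Genomics 3′ chemistry. The deposited files hold raw UMI counts per gene and nucleus, which the authors made with Cell Ranger (version 2.1.1 in the submitters' processing notes) on mm10, removing, within each sample, nuclei with a mitochondrial share far above the rest or with a read total or number of genes far below it. No upper limit on depth is stated. The authors also deposited the cluster of each nucleus. No doublet caller was run here.

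Counts were summed per sample over all nuclei, over cluster 9, over cluster 10 and over both, for samples with at least 10 nuclei. SCM and QCM were compared with edgeR 4.0.16 (quasi-likelihood test, TMM, filterByExpr with a minimum count of 10) in R 4.3.3, with limma 3.58.1, and Benjamini-Hochberg adjustment over all genes tested (threshold 0.05). DESeq2 1.42.0 was an alternative. Nuclei per cluster were fitted likewise with the sample total as library size. Shares were compared with exact permutation tests in scipy 1.17.1, and shares with a UMI were taken after thinning each nucleus to 1000 UMIs. A count of 0 allows 3 counts, and log2 levels carry 1 CPM as pseudocount. Scripts were tested on simulated data.

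The members and lists were chosen with earlier results of these data known. Named genes were the members, the 12 highest of a list of other enteroendocrine factors at 5 CPM or more in either cluster, the 4 highest hormone or amine genes of each cluster, and the 3 genes most like each member, of which some are not reported here. Vip, Insl5 and Mln of the hormone list were not analysed here. The replicate numbers of QCM and SCM are not stated to mark shared animals or days. Depth per sample is given with the results. Gene positions are from GENCODE on GRCm38 and promoter windows from RefSeq. Alternatives changed 1 choice at a time: DESeq2, library size alone, no filter on low counts, the replicate number as a block, leaving out each sample or the 6% deepest nuclei, the ribosomal protein share as a covariate, a minimum of 20 nuclei, and thinning to 2000 UMIs or none.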

Additional observations from a re-analysis of the deposited data

How the results depend on the processing

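Over all nuclei and in both clusters summed, no factor was called under any alternative. Counts of called genes moved as follows, and the cause was not tested. DESeq2 called 21 genes over all nuclei (20 higher and 1 lower in SCM). With no filter on low counts edgeR called 79 genes in cluster 9, 118 in cluster 10, 165 in both summed and 8 for the difference between the clusters. Xist (log2 ratios of -9.33, -9.27 and -9.42) and then Tsix had the smallest adjusted p in cluster 9, cluster 10 and both summed. QCM replicate 1 was the only library with high Xist in these fits. With library size alone edgeR called 1 gene in cluster 10. Leaving out 1 sample at a time gave 0 to 31 in cluster 10 (31 without QCM replicate 2) and 0 to 1 for the difference between the clusters (1 each without QCM replicate 1 and without SCM replicate 2), and 0 in the other 3 sums.

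The replicate number as a block gave 208 called genes in cluster 9 (24 higher and 184 lower in SCM), 80 in both clusters summed (8 and 72) and 0 over all nuclei and in cluster 10. In the fits within clusters QCM replicate 1 had no partner, so the block compared only replicates 2 and 3 of each medium. Very little was left there to estimate the spread, and these counts are not read as a result. Samples with the same number deviated together with r of 0.364, 0.462 and -0.088. For differently numbered samples r ran from -0.463 to 0.164. Numbers 1 and 2 lay above that range and number 3 within it. The deviations were taken from the mean of each medium's own samples, which ties all these r values together. The libraries numbered 1 also share barcodes. These values therefore cannot decide whether the numbers pair the samples. Under the block the log2 ratio of Pax6 in both clusters summed was -0.21. The fit of nuclei counts used all 6 samples. Under the block its log2 ratio for cluster 9 was -0.76 ± 0.24 (SE, edgeR unadjusted p = 0.0413, adjusted p = 0.466).

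Over all nuclei the log2 ratio changed sign for Neurod1 (0.084 with library size alone, 0.27 with the ribosomal covariate, 0.41 without the 6% deepest nuclei), Pax6 (0.0077 with library size alone, 0.30 without the deepest nuclei), Rfx6 (0.11) and Nkx2-2 (0.15) without the deepest nuclei, and Nkx2-2 (0.0088) without the shared barcodes. Leaving out 1 sample gave -0.43 to 0.22 for Neurod1, -0.42 to 0.41 for Pax6, -0.39 to 0.18 for Nkx2-2, -0.54 to -0.00024 for Rfx6, -0.96 to -0.19 for Etv1, -0.79 to -0.22 for Isl1, -0.90 to -0.32 for Lmx1a, -1.15 to -0.40 for Neurog3 and -2.26 to -1.24 for Insm1. In both clusters summed, Lmx1a was at 0.11 without the deepest nuclei and 0.0031 without the shared barcodes, and Etv1 at 0.15 with all 6 samples; leaving out 1 sample gave -0.12 to 0.19 for Neurod1, -0.24 to 0.41 for Pax6, -0.32 to 0.054 for Lmx1a, -1.26 to 0.20 for Insm1 and -0.45 to 0.29 for Etv1. The ratio of cluster 9 nuclei ranged from -1.18 to -0.07, that of cluster 10 nuclei from -0.48 to 0.43, and the difference in the cluster 10 share from -4.74 to 21.0 percentage points.

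Differences in the share of nuclei with a UMI, in percentage points, changed sign without thinning for Neurod1 (-0.953) and Rfx6 (-0.433), at 2000 UMIs for Rfx6 (-0.00176), Lmx1a (-0.463), Nkx2-2 (0.302) and Etv1 (0.0644), and without the deepest nuclei for Pax6 (-0.00169) and Etv1 (0.0571). Without both libraries numbered 1 they were -0.145 for Neurod1, -0.0562 for Rfx6, -0.0743 for Pax6 and -0.130 for Lmx1a. Leaving out 1 sample gave -0.0610 to 0.00639 for Neurog3, -0.205 to 0.288 for Neurod1, -0.00202 to 0.305 for Rfx6, -0.0445 to 0.0759 for Pax6, -0.0595 to 0.384 for Lmx1a and -0.106 to 0.0871 for Etv1. Without the deepest nuclei the cluster 10 to cluster 9 log2 ratio was -4.08 for Neurog3, -6.05 for Isl1 and 5.25 for Lmx1a. It was -3.02 for Insm1, -2.12 for Rfx6, -2.03 for Neurod1, -1.94 for Nkx2-2, -5.01 for Pax6 and -4.93 for Etv1. Leaving out 1 sample gave -5.17 to -3.83 for Pax6, -5.22 to -4.13 for Etv1 and -1.78 to -1.22 for Rfx6. The direction of this ratio held for all 9 factors under the alternatives run. The use of all 6 samples, and leaving out both libraries numbered 1 or their shared barcodes, were chosen after seeing the data. SCM replicate 1 was not in the CPM levels and tests within the clusters, so leaving it out there gave no value, and the pooled shares and UMI totals, which hold its nuclei, were not recomputed without it. With 3 and 2 samples, and 5 to 81 UMIs of Neurog3 per cluster, depth limits what the comparison within clusters can show.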
